A study of Mus musculus with 16 samples.

Results

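The Usp17-like family comprised 5 mouse genes, Usp17la, Usp17lb, Usp17lc, Usp17ld and Usp17le, chosen by gene name from a table of 14552 genes. All 5 had a mean of at least 10 normalized counts over the 16 libraries and entered the test with 13355 genes in all. Their transcripts were low in untreated cells and through 12 h of auxin, were 8.19-fold more abundant as a sum after 1 day than after 12 h, were highest after 2 days, and lay between these levels after auxin withdrawal.

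The libraries were made from mRNA of E14 cells, a line of mouse embryonic stem cells, all of 1 genotype: an auxin-inducible degron on Ddx10, which encodes a DEAD-box RNA helicase, together with Tir1, the plant F-box protein that directs degron-tagged proteins to destruction. There were 8 groups with 2 libraries each. Cells were untreated, had been in 500 µM indole-3-acetic acid (auxin) for 2, 4, 6 or 12 h or for 1 or 2 days, or had spent 2 days in auxin and then 2 days without it, the withdrawal group. Every group, the untreated one included, carried the degron and Tir1 and grew on gelatin in medium with serum, LIF, the GSK3 inhibitor CHIR99021 and the MEK inhibitor PD0325901. Auxin-treated cells without the degron were not analysed here, so effects of auxin and of DDX10 loss cannot be told apart. The sources used here do not say whether the line is a single clone or whether replicate libraries are separate cultures. A p-value therefore reflects variation among these libraries only, which may be technical.

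USP17 proteins, also called DUB or USP17-like proteins, are cysteine proteases of the ubiquitin-specific protease class that remove ubiquitin from other proteins. The first mouse members were found as immediate-early genes induced by cytokines in blood cells, and a human relative, DUB3, is known to stabilize the cell-cycle phosphatase CDC25A. In mouse embryonic stem cell cultures, Usp17-like transcripts are also known as part of the 2-cell-like program, which a small fraction of cells enters for a time and which includes Zscan4 genes and other transcripts of the embryo at the 2-cell stage. The RNA of a culture cannot tell more cells in that state from more RNA per cell, and this holds for every level given here.

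The 5 genes lie on both strands within 1613 kb of mouse chromosome 7 (GENCODE M21 on GRCm38). Usp17ld (ENSMUSG00000057321) is at chr7:103249737-103252505 on the minus strand. Usp17lc (ENSMUSG00000058976) is at chr7:103415072-103419880 on the plus strand, and its span overlaps Gm25774. Usp17le (ENSMUSG00000043073) is at chr7:104768049-104777470 on the minus strand. Usp17lb (ENSMUSG00000062369) is at chr7:104840257-104842603 on the minus strand, and Usp17la (ENSMUSG00000054568) is at chr7:104857009-104862667 on the plus strand. With 200 kb on either side, the stretch holds 157 annotated genes, of which 100 are olfactory receptor genes. Only 10 of the 157 are in the table, the 5 Usp17-like genes and 5 others.

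The members are close copies, which limits how far reads could be assigned to 1 of them. Aligned coding bases were 90.7% to 98.4% identical between pairs, with the highest identity between Usp17lc and Usp17ld over 1635 bases. Of all 100-base windows in the longest transcript, 39.5% in Usp17ld and 32.3% in Usp17lc also occur in another copy, against 10.3% in Usp17lb, 5.82% in Usp17le and 3.32% in Usp17la. Windows were also shared with genes that are not among the 5 members, namely Gm5053, Usp17le-ps and Adgrv1. By its name, Usp17le-ps is a pseudogene of the family, and it is not part of the sum. Read length is not given in the sources used here, so single-copy values are uncertain, above all for Usp17lc and Usp17ld, and the sum of the 5 copies is given beside them.

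The upstream sequences are shown because the copies changed together and the similarity between them extends into their promoters. RefSeq promoters were found for 4 of the 5 genes, on GRCm38.p6. Each line gives the 200 bases before the RefSeq transcription start, 5′ to 3′ on the strand of the gene. Capitals mark every match, on either strand, to TATAAA, the TATA box, and to CCACACCC, a form of the CACCC box. Both motifs were chosen after the sequences had been seen. The windows are chr7:104856816-104857015 (plus strand) for Usp17la, chr7:104842584-104842783 (minus strand) for Usp17lb, chr7:103416496-103416695 (plus strand) for Usp17lc and chr7:103252506-103252705 (minus strand) for Usp17ld.
Usp17la: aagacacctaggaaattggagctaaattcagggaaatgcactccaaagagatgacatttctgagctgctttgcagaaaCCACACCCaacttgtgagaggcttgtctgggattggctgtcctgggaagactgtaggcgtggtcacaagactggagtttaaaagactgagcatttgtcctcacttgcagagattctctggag
Usp17lb: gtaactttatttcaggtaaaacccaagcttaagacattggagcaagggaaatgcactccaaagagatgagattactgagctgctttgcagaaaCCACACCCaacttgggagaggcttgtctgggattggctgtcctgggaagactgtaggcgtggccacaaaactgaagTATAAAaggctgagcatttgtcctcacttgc
Usp17lc: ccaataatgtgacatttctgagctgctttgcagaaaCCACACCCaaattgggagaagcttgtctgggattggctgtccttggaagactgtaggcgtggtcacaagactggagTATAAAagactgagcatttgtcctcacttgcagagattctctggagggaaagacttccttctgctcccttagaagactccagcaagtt
Usp17ld: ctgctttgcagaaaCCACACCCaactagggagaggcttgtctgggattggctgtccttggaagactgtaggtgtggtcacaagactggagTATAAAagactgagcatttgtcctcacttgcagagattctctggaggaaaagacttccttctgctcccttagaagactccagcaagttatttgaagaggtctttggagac

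CCACACCC occurs in all 4 windows and in 2.72% of the 32851 RefSeq windows of the same length. It starts 122 bases upstream of the start in Usp17la, 107 in Usp17lb, 164 in Usp17lc and 186 in Usp17ld. TATAAA occurs in the windows of Usp17lb, Usp17lc and Usp17ld, beginning 31, 88 and 110 bases upstream, and in 9.96% of all windows. The letters TATAAA are not in the Usp17la window. The 2 motifs do not overlap in any of these windows. Pairs were also aligned over promoter sequences longer than the windows shown. Aligned bases were 90.5% to 96.8% identical between pairs, over 206 to 278 aligned positions. The promoters are close copies, so matches in the 4 windows are not independent, and the shares of all windows are given as a description. A match is a description of the letters only.

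Before the results, 3 features of the libraries bear on the family. First, the untreated libraries differed: all 5 copies were higher in untreated replicate 1 than in untreated replicate 2, by 1.49-fold for Usp17lb to 5.70-fold for Usp17la, and the sum was 147.3 against 53.7 normalized counts. Among 26 other 2-cell-stage genes tested, 24 (92.3%) were likewise higher in untreated replicate 1, with a median log2 difference of 1.32, against 53.3% of all tested genes with a median of 0.026. Second, for 1015 genes all 8 libraries of 2 to 12 h lay beyond all 8 others. The labels name no batch, none of the 5 members was among these genes, and the part of this split in the results was not tested. In addition, the value of 1 read was estimated at 0.890 to 1.25 normalized counts, so the family held about 52.6 and 118 reads in untreated libraries, 60.4 to 76.2 at 2 to 12 h, 455 to 974 at 1 and 2 days, and 268 and 290 after withdrawal. The 8 embryonic stem cell markers examined were all present. Ddx10 mRNA, which the degron does not target, was at 1019 ± 30.5 normalized counts at 2 days and 1471 ± 53.4 in untreated cells (log2 change -0.53, limma adjusted p = 0.0013). Values of a group are means ± SD with n = 2 throughout.

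During the first 12 h of auxin the family stayed low, and only Usp17lb passed the test. Usp17lb had 15.1 and 23.8 normalized counts after 2 h, 17.7 and 20.4 after 4 h, 16.3 and 10.6 after 6 h, and 6.81 and 9.99 after 12 h, against 30.1 and 20.3 in untreated cells. Its groups at 12 h and untreated did not overlap, and it fell by 1.48 ± 0.32 (SE) on the log2(value + 1) scale (limma with Benjamini-Hochberg adjustment over all tested genes, adjusted p = 0.0030). It also fell at 12 h relative to 2 h, by 1.11 on that scale (limma adjusted p = 0.023), which was lost without 2 h replicate 2 (adjusted p = 0.19) or 12 h replicate 1 (adjusted p = 0.16). With only the 2 compared groups fitted, neither call held (limma adjusted p = 0.082 against untreated and 0.091 against 2 h).

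Usp17lc had 28.8 and 14.3 normalized counts after 2 h, 20.8 and 13.7 after 4 h, 21.8 and 14.9 after 6 h, and 24.3 and 21.6 after 12 h, against 40.2 and 13.0 in untreated cells. Its 12 h libraries lay inside the untreated range, with a log2 difference of -0.01 (limma adjusted p = 0.99). Usp17la lay between 5.16 and 19.4 normalized counts in the 8 libraries of 2 to 12 h, against 34.7 and 6.10 in untreated cells, so these groups spanned much of the same range. Usp17le lay between 10.98 and 20.5 at 2 to 12 h, against 32.3 and 11.2 in untreated cells. Usp17ld, the least abundant copy, lay between 1.80 and 11.2 in 7 of the 8 libraries, was listed at 0 in 4 h replicate 1, and had 9.94 and 3.05 in untreated cells. Usp17la, Usp17le and Usp17ld passed the test at none of these times.

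Against untreated cells, limma called 0 of 5 copies in either direction at each of the first 3 times and 1 of 5 at 12 h. The shares of all tested genes called were 15.2% after 2 h, 19.1% after 4 h, 24.4% after 6 h and 33.1% after 12 h. An unadjusted p below 0.05 was reached by 0 copies at 2 h and 4 h and by Usp17lb alone at 6 h (limma log2 difference -0.86, adjusted p = 0.066). Set against 2 h, limma called 0 of 5 at 4 h, 0 of 5 at 6 h and 1 of 5 at 12 h, beside 2.45%, 7.80% and 24.6% of all tested genes, and 0 copies had an unadjusted p below 0.05 in the first 2 of these comparisons. Early calls depended on single libraries. Without untreated replicate 2, Usp17la was called lower at 2 h and 12 h, Usp17le at 4 h and 12 h, and Usp17lb at 6 h and 12 h. Without 4 h replicate 2, which leaves the library with Usp17ld at 0, Usp17ld was called lower at 4 h. The summed copies were at 57.1 ± 1.54 normalized counts at 12 h and 100.5 ± 66.2 in untreated cells, a log2 ratio of -0.82 that became 0.088 without untreated replicate 1.

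After 1 day all 5 copies stood above every library of the earlier times and of untreated cells. Groups this small can separate without a change, and how many of all tested genes did so was not counted. Usp17la had 130.0 and 101.5 normalized counts at 1 day, against 34.7 and 6.10 in untreated cells. Usp17lb had 119.8 and 120.0 at 1 day, against 30.1 and 20.3 in untreated cells. Usp17lc had 106.6 and 120.7 at 1 day, against 40.2 and 13.0 in untreated cells. The lower 1 day library exceeded the higher untreated library by over 2-fold in each of these copies.

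Usp17le had 103.1 and 75.8 normalized counts at 1 day, against 32.3 and 11.2 in untreated cells, and Usp17ld had 23.3 and 34.6, against 9.94 and 3.05. By limma with Benjamini-Hochberg adjustment, 4 of 5 copies were called higher, where 15.9% of all tested genes were. The log2 changes of the called copies were 2.86 ± 0.59 (SE) for Usp17la (adjusted p = 0.0021), 2.23 ± 0.32 for Usp17lb (adjusted p = 0.00014), 2.25 ± 0.44 for Usp17lc (adjusted p = 0.0015) and 2.15 ± 0.42 for Usp17le (adjusted p = 0.0015). Usp17ld, with a log2 difference of 2.14 ± 0.87, missed the threshold (limma adjusted p = 0.074). The untreated replicates moved the sizes: without replicate 1 the log2 changes were 4.03 for Usp17la, 2.50 for Usp17lb, 3.03 for Usp17lc and 2.87 for Usp17le, and without replicate 2 they were 1.70, 1.96, 1.48 and 1.42, all still called.

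The step between 12 h and 1 day does not involve the untreated libraries. It does cross the split between the libraries of 2 to 12 h and all others. A difference between libraries behind that split cannot be told apart from the time in auxin here. The step was compared after the values had been seen. All 5 copies were called higher at 1 day than at 12 h (limma with Benjamini-Hochberg adjustment), where 16.6% of all tested genes were. Usp17ld, at 2.30 ± 0.70 at 12 h, reached the overall mean needed for the test only through its levels at 1 day and later. With no such filter, all 5 were still called higher. The log2 changes were 3.27 for Usp17la (adjusted p = 0.0015), 3.71 for Usp17lb (adjusted p = 1.6e-05), 2.26 for Usp17lc (adjusted p = 0.0025), 3.17 for Usp17ld (adjusted p = 0.015) and 2.74 for Usp17le (adjusted p = 0.00057). The Usp17ld call was lost without 12 h replicate 1, 12 h replicate 2 or 1 day replicate 2, with adjusted p-values of 0.058, 0.082 and 0.085. The summed copies were at 467.7 ± 21.3 normalized counts at 1 day and 57.1 ± 1.54 at 12 h, a ratio of 8.19, with ratios between single libraries of 7.78 to 8.62.

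**Figure D1:**
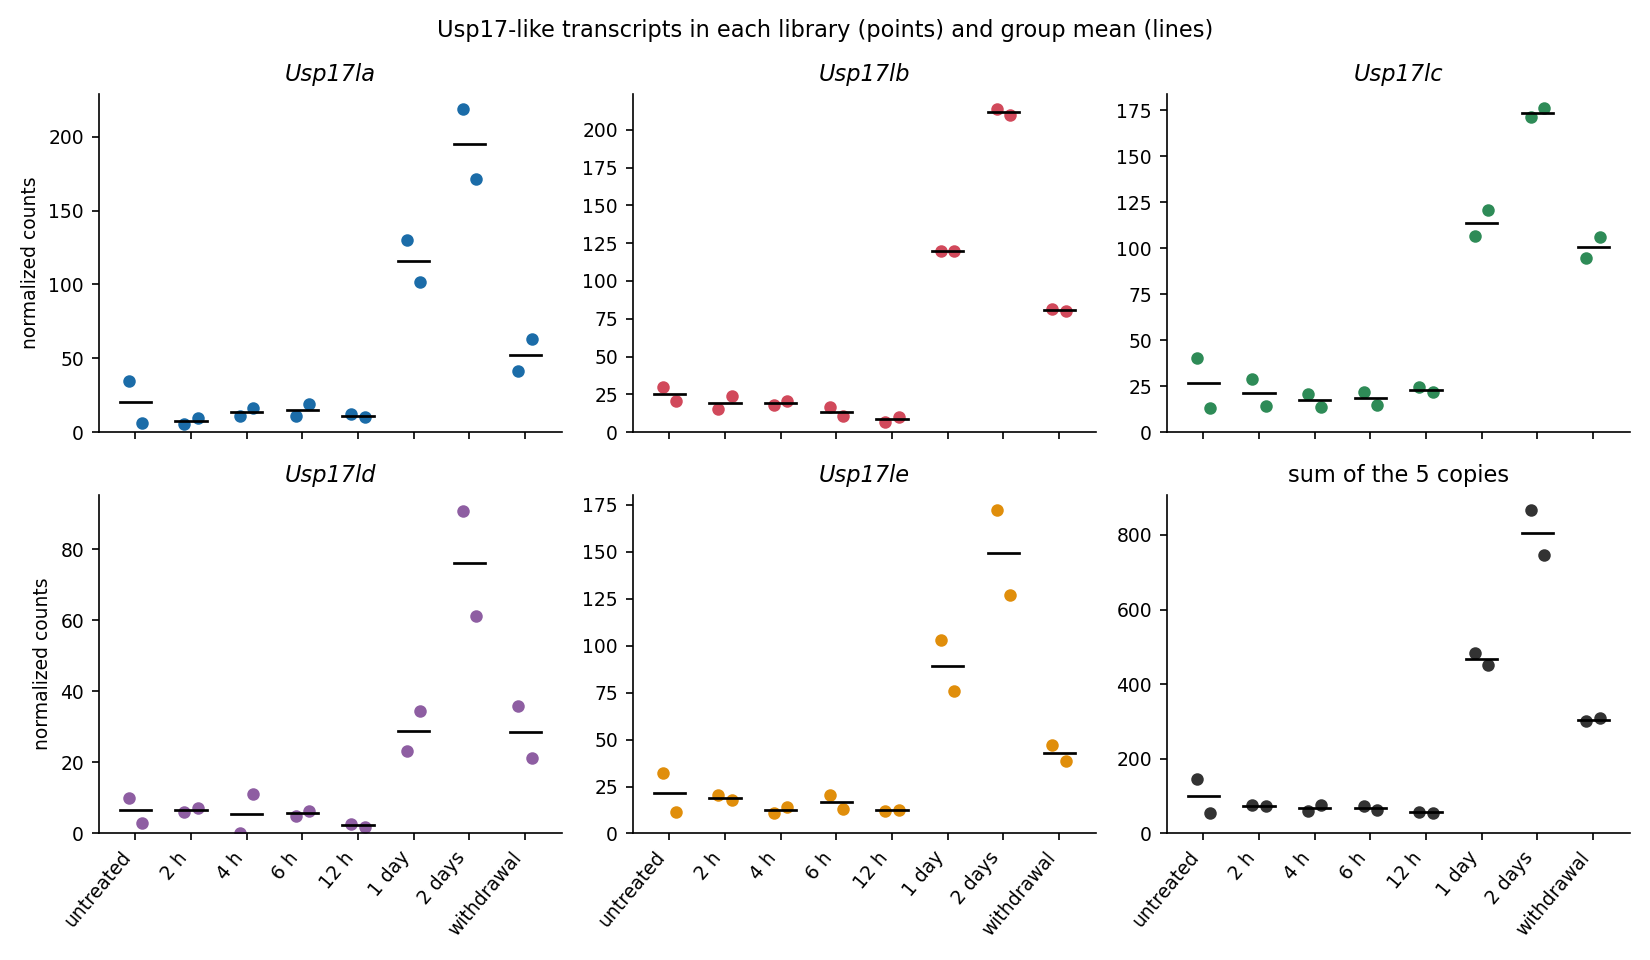
Normalized counts (y axes, linear, own scale per panel) of each Usp17-like copy and of their sum in the 16 libraries, by group (x axes). Points are libraries and lines are means of 2 libraries. The sum lies between 53.7 and 147.3 in untreated cells, between 56.0 and 76.0 at 2 to 12 h, and at 745.5 and 867 at 2 days.

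The highest levels of every copy were at 2 days. Usp17la had 219 and 171 normalized counts at 2 days, against 34.7 and 6.10 in untreated cells. Usp17lb had 213.7 and 210.0 at 2 days, against 30.1 and 20.3 in untreated cells. Usp17lc had 171 and 176 at 2 days, against 40.2 and 13.0 in untreated cells. Replicates at 2 days were close for Usp17lb and Usp17lc and further apart for Usp17la.

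Usp17ld had 90.8 and 61.3 normalized counts at 2 days, against 9.94 and 3.05 in untreated cells, and Usp17le had 172 and 127, against 32.3 and 11.2. All 5 copies were called higher at 2 days than in untreated cells (limma with Benjamini-Hochberg adjustment), where 21.0% of all tested genes were. Usp17ld, at 6.50 ± 4.87 in untreated cells, reached the overall mean needed for the test only through its later levels. With no such filter, all 5 were still called higher. The log2 changes were 3.61 for Usp17la (adjusted p = 0.00024), 3.05 for Usp17lb (adjusted p = 5.5e-06), 2.86 for Usp17lc (adjusted p = 0.00016), 3.51 for Usp17ld (adjusted p = 0.0050) and 2.88 for Usp17le (adjusted p = 9.8e-05). The median of these 5 was 3.05, and that of all tested genes was -0.012.

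Without untreated replicate 1 the log2 changes at 2 days were 4.78 for Usp17la, 3.32 for Usp17lb, 3.64 for Usp17lc, 4.22 for Usp17ld and 3.61 for Usp17le. Without untreated replicate 2 they were 2.44, 2.77, 2.09, 2.79 and 2.16 in the same order of copies, and the Usp17ld call was lost by a narrow margin (limma adjusted p = 0.0501). The sum was at 806 ± 85.8 normalized counts at 2 days and 100.5 ± 66.2 in untreated cells, an 8.02-fold ratio with library pairs between 5.06-fold and 16.1-fold. Its log2 ratio of 3.00 was 3.91 without untreated replicate 1 and 2.45 without untreated replicate 2. Each copy was higher in both 2 day libraries than in both 1 day libraries, and the sum was 1.72-fold higher. How many of all tested genes were higher in this way was not counted. None of the 5 log2 differences between 2 days and 1 day, 0.61 to 1.36, passed the limma test after adjustment, where 5.65% of all genes did, and Usp17lb alone had an unadjusted p below 0.05 (adjusted p = 0.16).

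**Figure D2:**
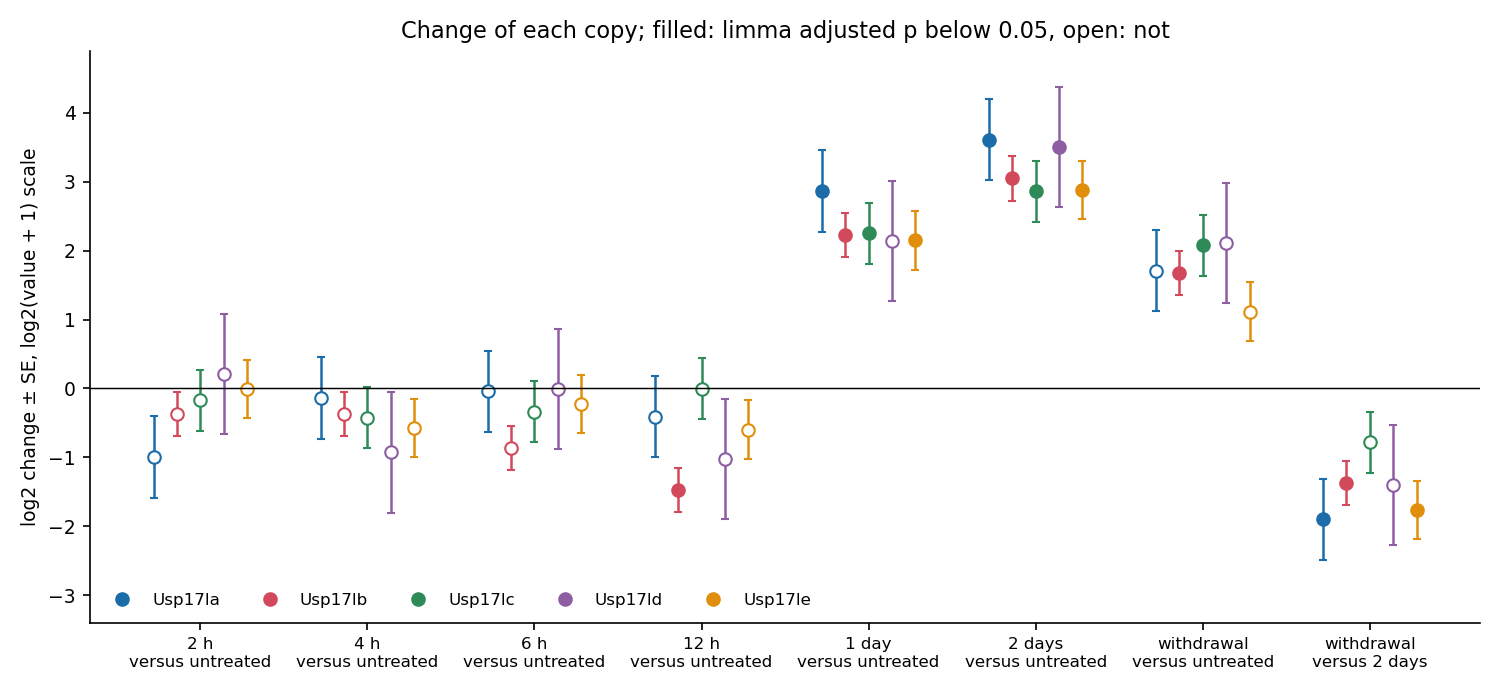
Log2 change of each copy on the log2(value + 1) scale (y axis) with its standard error in 8 comparisons (x axis). Filled points passed limma at an adjusted p below 0.05 and open points did not. All 5 are filled at 2 days against untreated, 4 at 1 day, 2 after withdrawal and 1 at 12 h. The 7 comparisons with untreated share the same untreated libraries.

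After withdrawal, all 5 copies were below their 2 day libraries and above their untreated libraries, with no overlap on either side. How many of all tested genes lay apart in this way was not counted. Usp17la had 41.5 and 62.9 normalized counts after withdrawal, against 219 and 171 at 2 days. Usp17lb had 81.8 and 80.4 after withdrawal, against 213.7 and 210.0 at 2 days. Usp17le had 47.3 and 38.5 after withdrawal, against 172 and 127 at 2 days. These 3 copies fell relative to 2 days, with log2 changes of -1.90, -1.37 and -1.77 (limma adjusted p = 0.020, 0.0039 and 0.0045), where 19.1% of all tested genes were called lower. The Usp17la call was lost without 2 days replicate 1, without 2 days replicate 2 or without withdrawal replicate 1, with adjusted p-values of 0.10, 0.057 and 0.12.

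Usp17lc had 94.9 and 106.3 normalized counts after withdrawal, against 171 and 176 at 2 days. Its mean was 57.9% of that at 2 days, the highest such share among the copies, and its log2 difference of -0.78 did not pass the limma test (adjusted p = 0.18). Usp17ld had 35.9 and 21.4 after withdrawal, against 90.8 and 61.3 at 2 days (log2 difference -1.40, adjusted p = 0.22). With only these 2 groups fitted, both copies were called lower (limma adjusted p = 0.0056 for Usp17lc and 0.012 for Usp17ld). Means after withdrawal were 26.8% of those at 2 days for Usp17la, 28.7% for Usp17le, 37.7% for Usp17ld and 38.3% for Usp17lb. Whether the copies differ in how far they came down was not tested.

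Against untreated cells, 2 of 5 copies remained higher after withdrawal (limma with Benjamini-Hochberg adjustment), where 1.72% of all tested genes were called higher. Usp17lb was higher by 1.67 (adjusted p = 0.014) and Usp17lc by 2.08 (adjusted p = 0.026) on the log2 scale. The other 3 had log2 differences of 1.71 for Usp17la (adjusted p = 0.14), 2.11 for Usp17ld (adjusted p = 0.23) and 1.11 for Usp17le (adjusted p = 0.18). The sum was at 305.5 ± 5.79 normalized counts after withdrawal and 100.5 ± 66.2 in untreated cells, a 3.04-fold ratio with library pairs between 2.05-fold and 5.76-fold. Both calls depended on the libraries. Each was lost without untreated replicate 2, without withdrawal replicate 1 or without withdrawal replicate 2, with adjusted p-values of 0.066 to 0.11 for Usp17lb and 0.11 to 0.15 for Usp17lc. Each was also lost with only the 2 compared groups fitted (limma adjusted p = 0.24 and 0.32). Without untreated replicate 1 their log2 changes were 1.95 and 2.85, and Usp17la and Usp17le were called as well, at 2.88 and 1.84.

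Ordered by the sum, the groups ran 2 days, 1 day, withdrawal, untreated, 2 h, 6 h, 4 h and 12 h. Library ranges of neighbours did not overlap among the first 3 groups, between withdrawal and untreated, or between 4 h and 12 h. Untreated and 2 h, 2 h and 6 h, and 6 h and 4 h overlapped, so their order is not resolved. Untreated cells also overlapped 12 h, with untreated replicate 2 at 53.7, against 58.2 and 56.0 at 12 h, so these 2 groups are not resolved either.

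The copies contributed unequally to the sum, and their shares varied between groups and libraries. Usp17lc made up 40.2% ± 2.20 of the summed counts at 12 h, its highest share, 21.7% ± 2.72 at 2 days and 32.9% ± 2.02 after withdrawal. Usp17lb made up 14.8% ± 4.34 at 12 h, its lowest share, 26.4% ± 2.49 at 2 days and 29.1% ± 12.3 in untreated cells. Both Usp17lc libraries at 12 h had a higher share, 38.7% and 41.8%, than any library of any other group. The margin was small, because the 2 h libraries were at 19.8% and 38.0%. The family held about 62.1 reads in each 12 h library. Usp17la lay between 9.89% and 24.7% and Usp17le between 14.1% and 25.7% in group means. Usp17ld was the smallest part in every group, with 4.02% to 9.41%. Shares rest on how reads were divided between close copies, and no test was made on them.

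**Figure D3:**
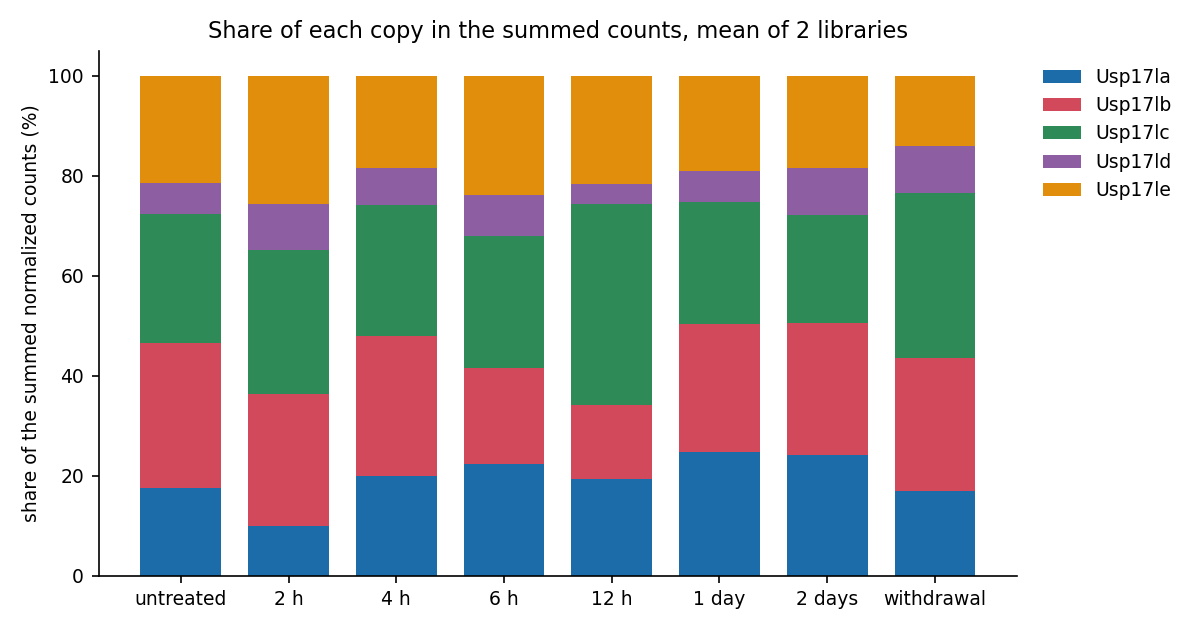
Share of each copy in the summed normalized counts (y axis, percent, mean of 2 libraries) in each group (x axis). Usp17lc is the largest part at 12 h with 40.2%, and Usp17ld is the smallest part in every group.

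Divided by the length of the longest transcript, Usp17lb had the highest level at 2 days, with 136 ± 1.65 normalized counts per kb. Usp17le with 79.3 ± 17.1, Usp17la with 73.4 ± 12.6 and Usp17lc with 72.3 ± 1.36 followed and did not differ beyond their spread. Usp17ld was lowest with 38.3 ± 10.5 per kb. On the same scale in untreated cells, Usp17lb was at 16.2 ± 4.47 and Usp17ld at 3.27 ± 2.45. Across the 16 libraries, Pearson correlations between pairs of copies were 0.83 to 0.95 on the log2 scale, over libraries that share groups and copies that share reads. Within the 8 libraries of 2 to 12 h, at low counts, the same pairs gave -0.70 to 0.59.

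Among named genes, those whose pattern was most like the summed copies were led by the Zscan4 family, DNA-binding zinc finger and SCAN domain genes of the 2-cell stage. Likeness is the Pearson correlation with log2(sum + 1) over 16 libraries that share the same groups, given as a description. A predicted gene ranked first, and among named genes likeness was highest for Zscan4f at 0.991, then Zscan4b and Zscan4c at 0.985 each, Zscan4d at 0.978 and Tdpoz3 at 0.974. Zscan4f was at 1751 ± 112 normalized counts at 2 days and 757 ± 2.28 after withdrawal, against 235 ± 127 in untreated cells. Tdpoz3, a TRAF and POZ domain gene expressed in early embryos, was at 118 ± 7.77 at 2 days, against 13.8 ± 12.3 in untreated cells.

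Next were Dazap2 and Rnf130 at 0.972 each and Zfp352, a zinc finger gene of the 2-cell stage, at 0.966. Dazap2, which encodes a small proline-rich protein named for binding to DAZ, was also highest at 2 days but over a far smaller span, with 1481 ± 30.6 normalized counts at 2 days, against 1137 ± 227 in untreated cells. Rnf130, a RING finger gene, was at 292 ± 56.5 at 2 days and 198 ± 15.3 after withdrawal, against 97.2 ± 16.3 in untreated cells. Zfp352 was at 96.9 and 76.9 at 2 days, against 28.6 and 5.97 in untreated cells. Ranked above Zfp352 were also 10 predicted genes, and 181 of 13350 genes had a correlation of at least 0.9.

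**Figure D4:**
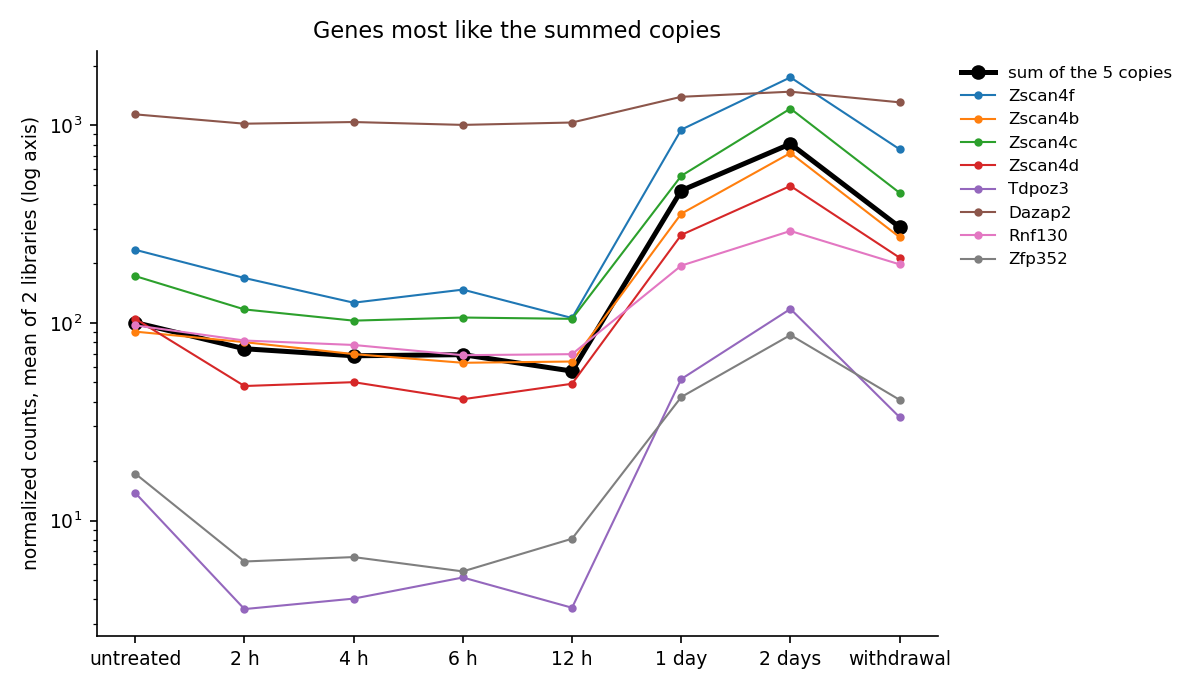
Mean normalized counts of 2 libraries (y axis, log scale) in each group (x axis) for the sum of the 5 copies (thick black line) and the 8 named genes most like it. All 9 lines are highest at 2 days. Dazap2 lies between 1006 and 1481 and the sum between 57.1 and 806.

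Other genes known from the 2-cell stage were taken from a list of 48, of which 31 were in the table and 26 were tested. At 2 days, 23 of the 26 were called higher than in untreated cells, 1 lower and 2 not, with a median log2 change of 2.70, against 21.0% of all tested genes called higher and a median of -0.012. The filter on the mean over all libraries lets low genes enter through the groups where they are high, which favours higher calls in this count. Zscan4b was higher by 3.04 (adjusted p = 7.4e-07), Zscan4f by 3.01 (adjusted p = 1.2e-06) and Zscan4c by 2.88 (adjusted p = 1.2e-06) by limma. Pramef8 was higher by 1.32 and the predicted genes Gm4340 and Gm5662 by 2.77 and 2.26. The gene called lower was Tcl1, a coactivator of AKT, with 1080 ± 32.9 normalized counts at 2 days, against 1568 ± 308 in untreated cells. The 2 that were not called were Pramel7 and Pramef12, and these 3 are named because the counts are small.

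At 12 h, limma called 0 of the 26 higher and 8 lower than in untreated cells, with 0 higher and 12 lower at an unadjusted p below 0.05 (median log2 difference -0.82), where 14.8% and 18.3% of all tested genes were called higher and lower. In untreated replicate 1, 24 of the 26 were higher than in untreated replicate 2, by a median log2 difference over the 26 of 1.32. How far the counts against untreated cells rest on that library was not tested, at 12 h or later. At 1 day, 19 were called higher and 0 lower, with 22 and 1 at an unadjusted p below 0.05 (median 1.78), where 15.9% and 17.7% of all tested genes were called higher and lower. After withdrawal, 10 were called higher and 0 lower against untreated cells, with 21 and 0 at an unadjusted p below 0.05 (median 1.55), where 1.72% of all tested genes were called higher. Zscan4f was among the 10, at 1.80 (limma adjusted p = 0.0043). Against 2 days, 2 were called higher and 12 lower, beside 22.2% and 19.1% of all tested genes. Over 16 libraries, 24 of the 26 had a correlation of at least 0.8 with the summed copies, as did 758 of 13350 genes in all. The list shares the same cells and libraries with the Usp17-like genes, and it was drawn up with earlier results of these data known.

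A list of 32 genes known to restrain or promote the 2-cell program was examined, of which Dux and Duxf3 were not in the table. Of the 30 that were tested, 17 were called lower at 2 days than in untreated cells and 6 higher, beside 23.8% and 21.0% of all tested genes. The median log2 change was -0.31. Here and at the other times, the counts do not separate genes that restrain the program from genes that promote it. No direction of the program can be read from them. The 6 genes named next had the smallest p of the list, and all of them fell. Uhrf1, a factor for maintenance of DNA methylation, was at 2584 ± 82.3 normalized counts at 2 days, against 8996 ± 512 in untreated cells (log2 change -1.80, limma adjusted p = 3.8e-09). Lin28a, an RNA-binding protein gene, was at 854 ± 56.5 at 2 days, against 3276 ± 680 in untreated cells (log2 change -1.92, adjusted p = 4.2e-08). Chaf1a and Chaf1b, subunits of chromatin assembly factor CAF-1, fell by 0.90 and 1.16 on the log2 scale (adjusted p = 1.4e-06 and 4.0e-06). Hmgb2, a high-mobility-group protein gene, fell by 0.75, and L3mbtl2, a component of a non-canonical Polycomb complex, fell by 0.53.

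At 12 h, 11 of the 30 regulators were called lower than in untreated cells and 1 higher, beside 18.3% and 14.8% of all tested genes. After withdrawal, 1 of the 30 was called, beside 2.79% of all tested genes. It was Lin28a, with 1783 ± 26.6 normalized counts, against 3276 ± 680 in untreated cells (limma log2 change -0.86, adjusted p = 0.0018). Trp53, which encodes the p53 transcription factor, was at 10852 ± 336 at 2 days, against 8800 ± 605 in untreated cells (log2 change 0.30, adjusted p = 0.0016).

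Other ubiquitin-specific protease genes were compared at the same time. Of 49 Usp genes outside the family, 13 were called higher and 9 lower at 2 days than in untreated cells, beside 21.0% and 23.8% of all tested genes, and the median log2 change was 0.063. Their log2 changes lay between -1.14 and 1.31, so that none reached the smallest change of a Usp17-like copy, 2.86. The 6 with the smallest p were Usp14, a proteasome-bound deubiquitinase (-0.63), Usp39, a splicing factor (-0.63), Usp48 (0.35), Usp19 (0.51), Usp46 (0.81) and Usp12 (-0.37). After withdrawal, 0 of 49 were called against untreated cells by limma, with 6 at an unadjusted p below 0.05, where 2.79% of all tested genes were called.

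**Figure D5:**
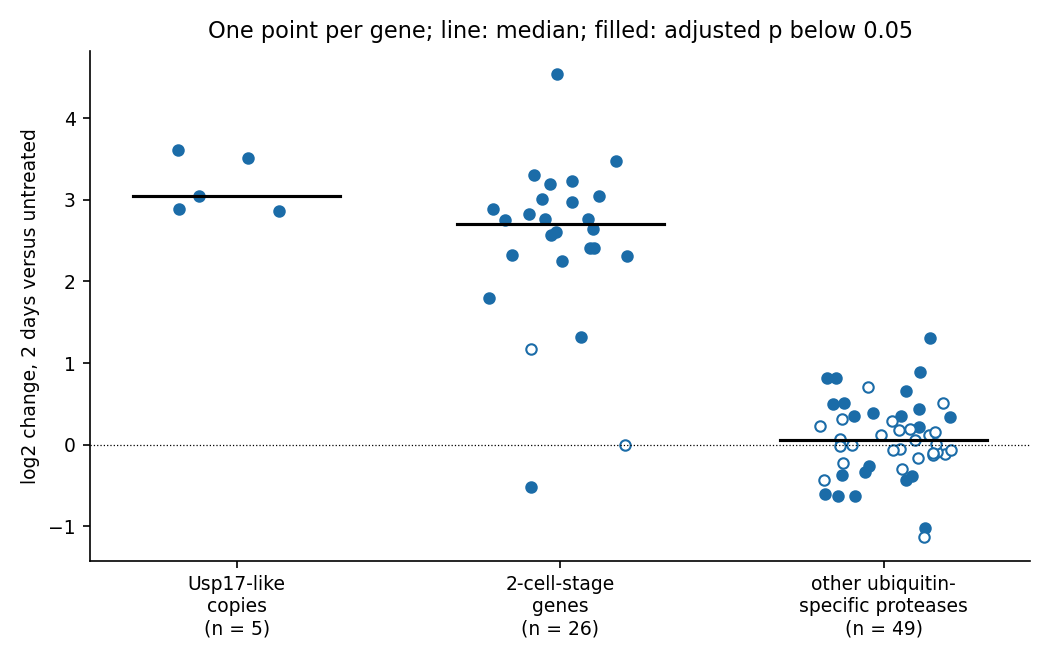
Log2 change at 2 days against untreated cells (y axis) of each Usp17-like copy, each of 26 other 2-cell-stage genes and each of 49 other ubiquitin-specific protease genes (x axis, 1 point per gene, spread sideways for legibility). Lines are medians (3.05, 2.70 and 0.063), and filled points passed limma at an adjusted p below 0.05.

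Transcripts of 7 proteins named in the literature as USP17 substrates showed no common direction. At 2 days 1 of the 7 was called higher, 2 lower and 4 not, beside 21.0% and 23.8% of all tested genes called higher and lower. Cdc25a was at 1264 ± 56.6 normalized counts at 2 days, against 2721 ± 10.7 in untreated cells (log2 change -1.11, limma adjusted p = 4.6e-08), and at 2612 ± 114 after withdrawal. Ezh2, the Polycomb methyltransferase gene, fell by 0.39 on the log2 scale (adjusted p = 0.0025), and Elk1, an ETS transcription factor gene, rose by 0.29 (adjusted p = 0.043). Snai1, Mcl1 and Rce1 had log2 differences of 0.92, -0.09 and 0.07, none of them called. These are transcript levels and say nothing of the proteins.

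The 5 other genes of the table within the cluster and its flanks, named after their values had been seen, were compared in the same way. At 1 day limma called 0 of 5 against untreated cells, with 0 higher and 1 lower at an unadjusted p below 0.05, where 15.9% of all tested genes were called higher and 17.7% lower. At 2 days, 2 of 5 were called higher and 1 lower, beside 21.0% and 23.8% of all tested genes. Trim12c, a tripartite motif gene, had 70.3 and 54.9 normalized counts at 2 days and 79.0 and 78.3 after withdrawal, against 4.37 and 48.6 in untreated cells, with a log2 change of 1.95 at 2 days (limma adjusted p = 0.040). Trim34a was higher at 2 days by 0.80 (adjusted p = 0.043), and the pseudogene Gm5900 was lower by 0.60 (adjusted p = 0.048). Trim6 and Trim34b had log2 differences of 0.20 and 0.25 and were not called.

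Markers of other cell types were examined beside these changes. The 6 primitive endoderm markers summed to 152 and 166 normalized counts at 2 days and to 96.7 and 101.3 after withdrawal, against 80.2 and 81.1 in untreated cells. Of 4 that were tested, Gata6 and Dab2 were called higher at 2 days, where 21.0% of all tested genes were. Gata6 reached the overall mean needed for the test only with its 2 day libraries counted, which favours a higher call. Sox7, too low to be tested, was at 2.66 and 5.55 at 2 days, against 11.2 and 3.05 in untreated cells, and Gata6 was at 17.5 ± 9.10, against 2.65 ± 2.00 in untreated cells. Of 6 trophectoderm markers, 4 were in the table and summed to 1905 and 2060 at 2 days, against 1042 and 1159 in untreated cells. The members did not move one way. Tfap2c, most of that sum, was called higher, at 1711 ± 90.1 at 2 days, against 675.0 ± 211 in untreated cells (log2 change 1.38, limma adjusted p = 7.0e-05). Eomes was called lower, at 247 and 219 at 2 days, against 267 and 481 in untreated cells (log2 change -0.63, limma adjusted p = 0.029). Cdx2 was at 17.8 and 28.8 at 2 days, against 67.1 and 35.6 in untreated cells (limma adjusted p = 0.074), and Krt7, which was too low to be tested, was at 21.4 and 10.3 at 2 days and at 0 in both untreated libraries. The fibroblast markers Col1a1 and Thy1 summed to 67.4 and 97.6 at 2 days, against 106.8 and 108.0 in untreated cells. Thy1 was called lower at 2 days (log2 change -1.68, limma adjusted p = 0.0017), while Col1a1 had a log2 difference of 0.73 and was not called (limma adjusted p = 0.20). The other 4 of that list and all 6 blood cell markers were not in the table, so no level can be given for them. The part of other cell types in the Usp17-like levels was not tested.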

How the data were processed

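Messenger RNA was sequenced in 16 libraries, and the labels gave the 8 groups of 2 and their replicate numbers. The deposited table holds normalized counts (unit: signal), which the authors appear to have made by scaling gene counts per library; this rests on the deposited table's name and values. Per the submitters' processing notes, Trim Galore, STAR, RSEM, DESeq2 and the mouse build mm10 (GRCm38) were used. Roles, versions, use of strand and the handling of reads that match several copies are not stated there. Members were found by gene name, and members and lists were chosen with earlier results of these data known.

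Log2(value + 1) of the deposited normalized counts was analysed, a scale on which changes of low genes look smaller. A linear model of group means was fitted to the 13355 genes whose overall mean reached 10, with all libraries, by limma 3.58.1 (R 4.3.3, intensity trend, 8 residual degrees of freedom). Benjamini-Hochberg adjustment covered all tested genes of a comparison, and an adjusted p below 0.05 was called. The 11 comparisons set 7 groups against untreated, withdrawal against 2 days, and 4, 6 and 12 h against 2 h; 2 more between neighbouring times were added after values were seen. The sum of the copies was not tested. Named genes were the members, the 8 named genes most like the sum, up to 6 genes of each list with the smallest p at 2 days, Ddx10 and Trp53, and not every gene this rule allows is printed. Outside it, markers of other cell types, the neighbours of the copies, and Tcl1, Pramel7 and Pramef12 were named after their values were seen. Dux and Duxf3 were named because they were absent. From steps between low values, libraries held about 13.6 M to 17.5 M reads. Sequences and positions are from GENCODE M21 and RefSeq, aligned with Biopython 1.88. The code was tested on simulated data.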

Additional observations from a re-analysis of the deposited data

Results flagged for a closer look

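The change of each copy relative to untreated cells differed between 1 day and 12 h, which is the same as a direct comparison of these times because the untreated libraries cancel. The log2 differences were 3.27 for Usp17la, 3.71 for Usp17lb, 2.26 for Usp17lc, 3.17 for Usp17ld and 2.74 for Usp17le, higher at 1 day in both libraries of each copy (limma adjusted p = 0.0015, 1.6e-05, 0.0025, 0.015 and 0.00057). The comparison was chosen after the values had been seen, and 16.6% of all tested genes were called higher in it. Usp17ld entered the test only through its levels at 1 day and later. It also crosses the split between the libraries of 2 to 12 h and all others.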

How the results depend on the processing

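The alternatives changed the pseudocount (0.5 or 5), the filter (none, or a mean of 50 or more), the scaling (TMM or upper quartiles), the block, the groups fitted (only the 2 compared) and the libraries (each left out). Of 754 results for single copies, 724 kept their side of the threshold, 19 lost the call, 11 gained it and none reversed as a call. With a pseudocount of 5, Usp17ld was called at 1 day (adjusted p = 0.022). Fitting only the 2 groups called 0 copies at 12 h (1 with all libraries), 0 after withdrawal against untreated (2), 5 after withdrawal against 2 days (3) and 0 at 12 h against 2 h (1). With a mean of at least 50, 3 copies were tested and 3 were called at 2 days and at 1 day against 12 h.

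Leaving out 1 library gave 0 to 1 called copies in the comparisons of 2, 4 and 6 h with untreated and of 12 h with 2 h, 1 to 3 for 12 h with untreated, and 0 to 4 after withdrawal against untreated. Log2 ratios of the sum against untreated ranged over -0.99 to 0.46 at 2 h, -1.11 to 0.35 at 4 h, -1.09 to 0.36 at 6 h, -1.37 to 0.088 at 12 h, 1.67 to 3.12 at 1 day, 2.45 to 3.91 at 2 days and 1.05 to 2.51 after withdrawal. They were -1.51 to -1.29 for withdrawal against 2 days and -0.29 to 0.037 for 4 h against 2 h. All low and high ends against untreated came from leaving out untreated replicate 2 and replicate 1.

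Fitting only the 2 groups called, over all genes, 408 at 2 h (2030 with all libraries), 731 at 4 h (2548), 1411 at 6 h (3253), 2901 at 12 h (4422), 1219 at 1 day (4484) and 1 after withdrawal (373), all against untreated. It called 694 at 4 h against 2 h (327), 2274 at 6 h against 2 h (1042), 1685 at 1 day against 12 h (4063) and 0 at 2 days against 1 day (754). Fewer libraries then estimate the spread, and the spread was unequal between groups. The SD of the replicate log2 difference was 0.619 in untreated cells and 0.533 at 1 day, against 0.368 to 0.414 in the others. The fit of all libraries shares a common spread, so its p-values in comparisons with untreated or 1 day may be too small.

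With the replicate number as a block, 5 copies were called at 2 days, 4 at 1 day and 2 after withdrawal against untreated, and the call of every copy stood in all 13 comparisons. The 2 numbers do not pair the samples: replicate differences correlated by -0.061 to 0.066 over 28 pairs of groups.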
